A study of Mus musculus with 9 samples.

Results

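Apolipoproteins are the protein parts of lipoproteins, the particles in which blood and yolk sac fluids carry lipid, and 10 genes for them and for their assembly were followed here through embryoid body differentiation. The 10 are Apob, Mttp, Apom, Apoa1, Apoa2, Apoa4, Apoa5, Apoc1, Apoc3 and Apoe, out of 22180 genes measured. They were taken by name from the array's annotation, with earlier results of these data known. Their counts beside those of all genes are therefore a description and not a test. Each of the 10 was read by 1 probe set that carries no other gene symbol. Mouse embryonic stem cells with an Afp::GFP transgene, in which the promoter of the alpha-fetoprotein gene drives green fluorescent protein, were aggregated into embryoid bodies and grown on gelatin in serum-containing medium. Reporter-positive cells were collected by flow cytometry at day 4, day 7 and day 21, with 3 arrays per day. All 3 groups carry the transgene and passed the same sort, and none was unsorted or negative for the reporter. The reporter follows a promoter that is active in more than 1 cell type, so the sorted cells are defined by it and not by a lineage, and the labels do not say whether the arrays of a day came from separate cultures.

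Large triglyceride-rich particles form in the endoplasmic reticulum, where the microsomal triglyceride transfer protein, encoded by Mttp, loads lipid onto the long apolipoprotein B chain as it is made. Apoa1, Apoa2 and Apom encode proteins of high-density lipoprotein, and the smaller exchangeable apolipoproteins of the C, A4, A5 and E classes steer lipase activity and receptor uptake. In the embryo these particles come first from yolk sac visceral endoderm, and later from fetal liver and gut.

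Gene values are log2 signals, so a step of 1 is a doubling of the array signal. Signals are not corrected for probe affinity or transcript length, and the levels of different genes are therefore not compared. As a reference for background, the 95th percentile of 1105 olfactory receptor genes, silent in most cells, was 6.06 at day 4, 6.06 at day 7 and 6.03 at day 21. By this measure 7 of the 10 genes had a mean above background at day 4, 10 at day 7 and 9 at day 21. Arrays of the same day correlated at 0.984 to 0.991 across genes. The sorting gene itself went against its label at day 4. Afp read 5.93, 5.62 and 5.62 on the day 4 arrays, all below background, then 10.54 to 10.68 at day 7 and 12.95 to 13.14 at day 21. Of 14 visceral endoderm markers, 11 were above background at day 4 (not Afp, Ttr or Cubn) and 14 at days 7 and 21.

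The upstream sequences of 4 members are given for their contrasting courses. Apob and Apom rose and fell the furthest among the 10, and Apoa4 and Apoa5 are next to each other on chromosome 9 but did not move to the same extent. Each is the 250 bases upstream of a RefSeq start on build GRCm38.p6, 5′ to 3′ on the gene's strand, at chr12:7977427-7977676 (plus strand), chr17:35131802-35132051 (minus), chr9:46240594-46240843 (plus) and chr9:46268358-46268607 (plus, the first of 2 listed starts). Capitals mark matches, on either strand, to CAAAGNNCA, a form of the site bound by HNF4 factors, or to TATAAA, the TATA box.
Apob: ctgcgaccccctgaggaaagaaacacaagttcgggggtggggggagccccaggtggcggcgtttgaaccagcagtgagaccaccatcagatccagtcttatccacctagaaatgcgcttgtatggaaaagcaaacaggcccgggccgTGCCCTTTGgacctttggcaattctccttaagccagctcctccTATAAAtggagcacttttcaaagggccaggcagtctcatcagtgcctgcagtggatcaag
Apom: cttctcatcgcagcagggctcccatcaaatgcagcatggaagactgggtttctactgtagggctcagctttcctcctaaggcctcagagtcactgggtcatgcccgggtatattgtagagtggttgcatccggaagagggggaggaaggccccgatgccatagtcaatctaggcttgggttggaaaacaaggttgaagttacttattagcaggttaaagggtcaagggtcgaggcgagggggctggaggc
Apoa4: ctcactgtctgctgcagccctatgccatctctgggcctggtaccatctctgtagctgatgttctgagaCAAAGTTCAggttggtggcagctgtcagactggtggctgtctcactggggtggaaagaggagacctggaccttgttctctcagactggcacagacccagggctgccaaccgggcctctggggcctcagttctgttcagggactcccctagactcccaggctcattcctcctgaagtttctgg
Apoa5: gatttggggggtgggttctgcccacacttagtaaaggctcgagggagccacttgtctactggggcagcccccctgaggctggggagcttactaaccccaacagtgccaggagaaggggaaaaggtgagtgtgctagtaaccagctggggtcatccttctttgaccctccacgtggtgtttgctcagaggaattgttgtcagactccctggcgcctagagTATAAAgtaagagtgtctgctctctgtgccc
The Apob window held a CAAAGNNCA match on the minus strand 103 to 95 bases upstream of the start, and a TATAAA match 60 to 55 bases upstream. The Apoa4 window held CAAAGTTCA 182 to 174 bases upstream, the Apoa5 window held TATAAA 31 to 26 bases upstream, and the Apom window held neither. RefSeq windows were given for 8 of the 10 genes, and 2 of the 8 (Apob and Apoa4) held CAAAGNNCA, as did 6.29% of 27025 genes with such windows (5.49% of 32851 windows). TATAAA was held by 4 of the 8 (Apob, Apoa2, Apoa5 and Apoe) and by 14.33% of genes (12.37% of windows). The 8 genes had 12 windows, and a gene was counted if any of its windows held a match. The Apoa2 match lay 212 to 207 bases upstream, and Apoe held matches at start 2 of its 3 starts only. AGGTCA, a nuclear receptor motif searched on both strands, was held by Apoa2 alone and by 15.76% of genes (14.02% of windows), and the longer palindromic HNF1-type site by 0 of the 8 and 0.01% of genes. No motif overlapped another in the 4 sequences printed, and a match describes letters and not binding.

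The question put by the day 7 and day 4 comparison is how transcripts of the reporter-positive cells changed as the embryoid bodies matured. Between these days 9 of the 10 genes rose, 0 fell, and Apoa5 did not pass limma's adjusted test. The rises ran from 1.36-fold for Apoc3 to 56.8-fold for Apob. Of all 22180 genes 13.4% were called in either direction, 6.98% as higher and 6.47% as lower at day 7. The median log2 change was 1.43 for the 10 genes and -0.01 for all genes. For all 10, Apoa5 included, the 3 day 7 arrays lay above the 3 day 4 arrays, as they did for 14.0% of all genes (the reverse held for 15.9%).

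**Figure D1:**
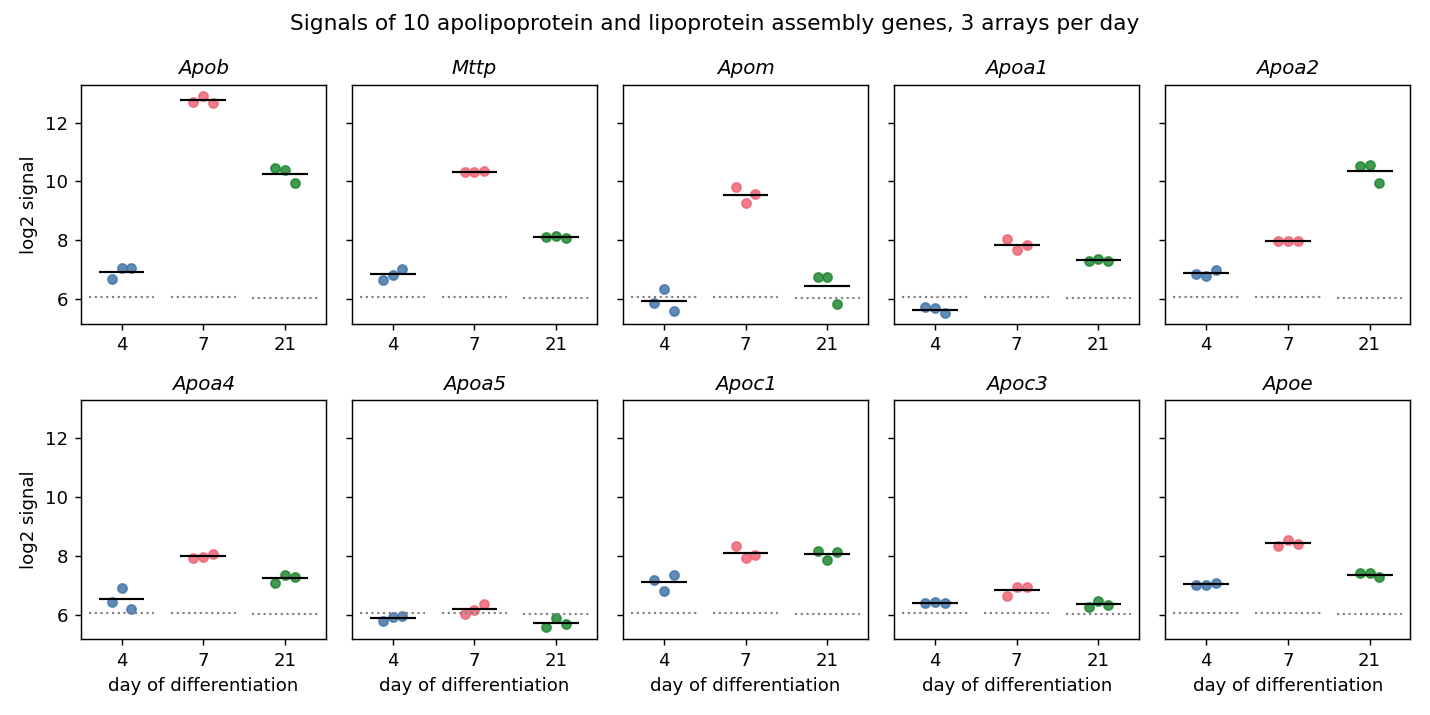
Log2 signal (vertical axis) of the 10 genes on each of the 3 arrays per day (points, days 4, 7 and 21 on the horizontal axis), with the mean of a day as a black bar and the 95th percentile of olfactory receptor genes as a dotted line. Apart from Apoa2, which was highest at day 21, each gene had its highest mean at day 7, and Apob reached 12.76 there.

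Apob and Mttp, the core of particle assembly, moved together in direction and by different amounts. Apob (probe set 17273864) read 6.70, 7.06 and 7.04 on the day 4 arrays, 12.69, 12.91 and 12.68 at day 7, and 10.46, 10.38 and 9.94 at day 21. The 3 days did not overlap, with day 7 highest and day 21 between. The log2 change to day 7 was 5.83 ± 0.16 (SE), ranked 2 of 22180 genes by size of rise, after Cubn. It changed by -2.50 ± 0.16 from day 7 to day 21, a 5.66-fold fall (limma adjusted p = 1.50e-06), and ended 3.33 ± 0.16 above day 4. Mttp (17410636) read 6.66, 6.82 and 7.03 at day 4, 10.31, 10.31 and 10.34 at day 7, and 8.12, 8.14 and 8.08 at day 21. Its spread at days 7 and 21 was narrow (SD 0.02 and 0.03), and no day overlapped another. Mttp rose 11.2-fold by day 7 (limma adjusted p = 2.65e-08), then changed by -2.20 ± 0.11, and remained 2.43-fold above day 4. The change of Apob exceeded that of Mttp by 2.35 ± 0.11 (log2, SE over arrays) between days 4 and 7, measured as the difference between the genes within each array. From day 7 to day 21 the corresponding difference was -0.30 ± 0.17. Both differences had an exact permutation p of 0.10, two-sided, which is the smallest that 3 arrays against 3 can give.

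Other genes of particle assembly and secretion changed less. By day 7, 10 of 29 rose and 1 fell, against 6.98% and 6.47% of all genes. The other 18 missed the threshold, and the median log2 change was 0.21. The largest changes were rises of Mia2, which helps large cargo leave the endoplasmic reticulum (1.90 ± 0.17), and of Pla2g12b, which takes part in lipidation of apolipoprotein B particles (1.08 ± 0.15), together with those of 2 RNA-binding proteins. These were Rbm47 (1.55 ± 0.14) and A1cf (1.30 ± 0.18), cofactors of the enzyme that edits Apob mRNA to make the short B48 form. Mia2, Rbm47 and A1cf were below background at day 4, so their changes start from a floor. The editing enzyme itself, Apobec1, had a log2 change of -0.16 ± 0.13 that did not pass, and its day 7 mean was below background. From day 7 to day 21 it rose by 0.50, a call lost with arrays centred on their 75th percentile (limma adjusted p = 0.0508). The arrays do not separate the long and short forms of Apob mRNA. By day 21, relative to day 7, 12.4% of all genes rose and 10.7% fell. Of the 29, 7 rose, 0 fell and 22 did not pass (median 0.05, against -0.03 for all genes). With arrays centred on their median these counts were 6 and 4, and the median was -0.05. Vmp1, an endoplasmic reticulum lipid scramblase below background at day 7, rose by 0.95 ± 0.24, Mia2 by 0.79 ± 0.17 and Lpin1, a phosphatidate phosphatase, by 0.62 ± 0.09. Dgat2, a triglyceride-forming enzyme, rose by 0.52 ± 0.15, a call that was lost under median centring (adjusted p = 0.0654) and quantile normalization (adjusted p = 0.0741). At day 21 against day 4, 12 of the 29 rose and 2 fell, beside 15.0% and 14.1% of all genes.

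Among the high-density lipoprotein genes, Apom rose and then fell, as Apob did, but its day 21 arrays overlapped those of day 4. Apoa1 ended nearer to day 7 than to day 4, and Apoa2 rose in both intervals. Apom (17344242), whose protein carries sphingosine 1-phosphate, read 5.88, 6.34 and 5.60 at day 4, 9.80, 9.27 and 9.58 at day 7, and 6.76, 6.76 and 5.84 at day 21. The day 7 arrays stood apart from both other days, which overlapped. Apom rose 12.2-fold by day 7 (adjusted p = 8.40e-06) and fell 8.57-fold by day 21 (adjusted p = 1.41e-05), the 12th largest fall of 22180 genes. The day 4 mean was below background, so the size of the rise is set against a floor. At day 21 against day 4 the log2 change was 0.51 ± 0.27 and did not pass (limma adjusted p = 0.194). Without day 21 array 3, which was below background, it was 0.82 and passed (adjusted p = 0.0202).

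Apoa1 (17516901) encodes the most abundant protein of these particles. It read 5.71, 5.68 and 5.53 at day 4, all below background, then 8.05, 7.68 and 7.82 at day 7, and 7.28, 7.35 and 7.31 at day 21. The days did not overlap, and day 21 lay nearer to day 7. Apoa1 rose 4.62-fold (adjusted p = 6.73e-07) and then fell 1.45-fold (adjusted p = 0.00539), which left it 3.18-fold above day 4. Both values against day 4 are set against a floor. Apoa2 (17219242), the second protein of these particles, read 6.85, 6.79 and 6.99 at day 4, 7.98 on each day 7 array, and 10.53, 10.57 and 9.94 at day 21. It rose 2.15-fold by day 7 (adjusted p = 7.98e-04) and a further 5.16-fold by day 21 (adjusted p = 2.16e-06), 11.1-fold in all. Of the 10 genes Apoa2 was the only one that rose from day 7 to day 21 in limma's test, and its rise was called in each of the 17 alternatives run. The deposited values of Apoa2 were identical on the 3 day 7 arrays, as were those of 214 genes (0.96%) that day, so the SD there is 0 and gives no replicate error. Relative to Apoa2, Apoa1 changed by -2.91 ± 0.23 from day 7 to day 21 (exact permutation p = 0.10, the smallest possible).

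The A4, A5 and C3 genes lie beside Apoa1 in 1 cluster on chromosome 9, in the order Apoa1, Apoc3, Apoa4, Apoa5. From day 4 to day 7 these 3 moved by less than Apoa1. Apoa4 (17516908), an apolipoprotein of gut and yolk sac particles, read 6.44, 6.91 and 6.19 at day 4, 7.91, 7.97 and 8.07 at day 7, and 7.06, 7.35 and 7.27 at day 21. Days did not overlap, with day 21 between the others. It rose 2.77-fold (adjusted p = 1.74e-04), fell 1.69-fold (adjusted p = 0.00737) and ended 1.64-fold above day 4 (adjusted p = 0.00807). Apoc3 (17526623), whose protein slows lipoprotein lipase, read 6.39, 6.44 and 6.38 at day 4, 6.64, 6.95 and 6.95 at day 7, and 6.26, 6.46 and 6.31 at day 21. Only day 7 stood apart. The rise of Apoc3, 0.45 ± 0.11, had an adjusted p of 0.0220, which lay between 0.0559 and 0.0854 without day 4 array 1, 2 or 3 or day 7 array 2 or 3. Its fall, -0.50 ± 0.11, had an adjusted p of 0.00731.

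Apoa5 (17516915), whose protein aids lipoprotein lipase, stayed near background. It read 5.78, 5.90 and 5.95 at day 4, 6.03, 6.16 and 6.37 at day 7, and 5.58, 5.89 and 5.69 at day 21. The 6 arrays of days 4 and 21 overlapped, and the day 7 arrays lay above them. The log2 change of 0.31 ± 0.12 to day 7 did not pass (limma adjusted p = 0.138). The later change of -0.47 ± 0.12 passed (adjusted p = 0.0170), but not without day 7 array 3 (adjusted p = 0.0676) or day 21 array 1 (adjusted p = 0.0638). Within arrays, Apoa4 changed by 1.16 ± 0.23 more than Apoa5 between days 4 and 7, and Apoa1 by 1.76 ± 0.21 more than Apoc3 (exact permutation p = 0.10 for both).

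Apoe and Apoc1 are neighbours in a second cluster, on chromosome 7, and differed in what followed day 7. Apoe (17487381), the ligand by which receptors take up remnant particles, read 7.02, 6.99 and 7.08 at day 4, 8.32, 8.54 and 8.41 at day 7, and 7.40, 7.40 and 7.27 at day 21. Days did not overlap. Apoe rose 2.62-fold (adjusted p = 5.75e-06) and fell 2.10-fold (adjusted p = 2.02e-05). The remaining 1.25-fold rise over day 4 (adjusted p = 0.0276) was lost under all 3 other scalings of the arrays (adjusted p 0.0629 to 0.124) and without day 4 array 1 or 2 or day 21 array 1 or 2 (0.0696 to 0.0870). Apoc1 (17487374), a small exchangeable apolipoprotein, read 7.18, 6.80 and 7.34 at day 4, 8.32, 7.93 and 8.02 at day 7, and 8.16, 7.85 and 8.12 at day 21. The arrays of days 7 and 21 overlapped, and both lay above day 4. It rose 1.97-fold (adjusted p = 0.00210), and its later log2 change of -0.05 ± 0.16 did not pass (adjusted p = 0.884). Relative to Apoe, Apoc1 changed by 1.02 ± 0.22 from day 7 to day 21 (exact permutation p = 0.10).

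In all, 21 such within-array differences between 7 pairs of the genes were computed, and 18 had the smallest possible exact permutation p of 0.10 (0.117 after Benjamini-Hochberg adjustment), so none could pass. The other 3 were Apoa1 against Apoa4 (0.22 ± 0.15, exact p = 0.30) and Apoa1 against Apoc3 (-0.04 ± 0.21, exact p = 1.0) from day 7 to day 21, and Apoc1 against Apoe (-0.41 ± 0.23, exact p = 0.20) from day 4 to day 7.

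**Figure D2:**
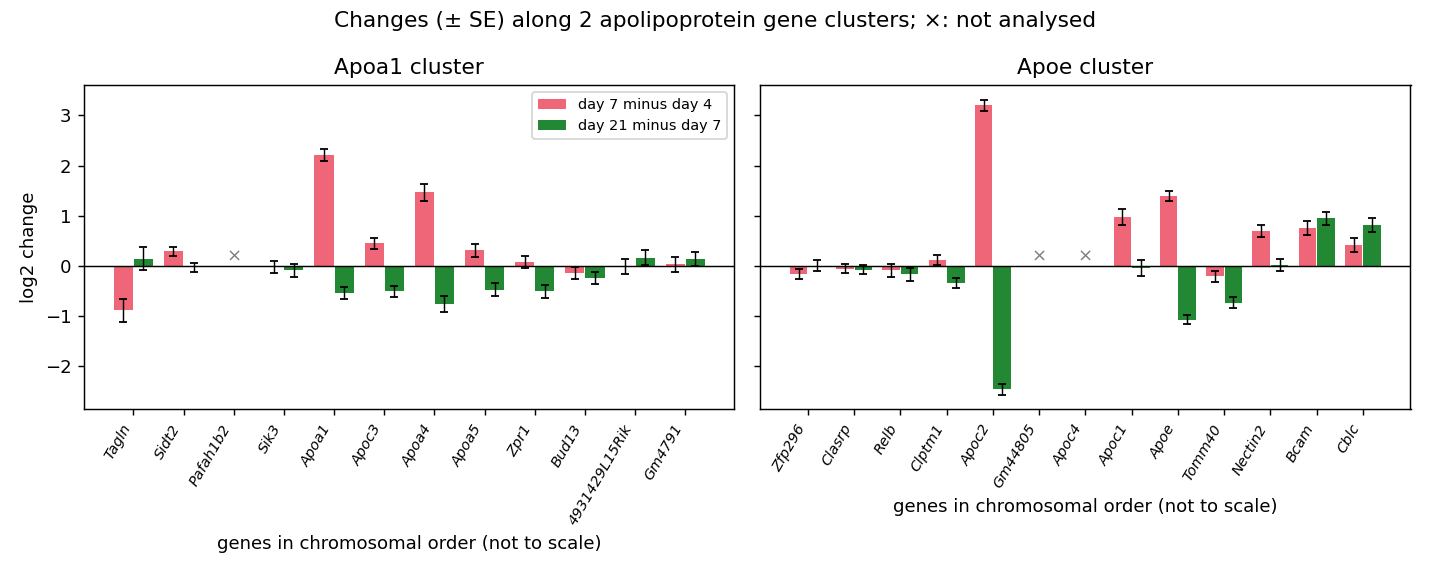
Log2 change (vertical axis, bars with SE from limma) between days 4 and 7 and between days 7 and 21 for genes in chromosomal order around Apoa1 on chromosome 9 and around Apoe on chromosome 7 (horizontal axis, not to scale). In the left panel Apoa1 (2.21) and Apoa4 (1.47) stand above Sik3 (-0.02) and Zpr1 (0.08) on either side, and in the right panel Apoc2 has the largest rise and fall.

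Genes on either side of the clusters were measured as well. Beside Apoa1, Sik3, a kinase, had a log2 change of -0.02 ± 0.13 between days 4 and 7. Beyond Apoa5, Zpr1, a zinc finger protein, changed by 0.08 ± 0.13 in that interval, and neither passed. Zpr1 fell by 0.51 on the log2 scale from day 7 to day 21 (adjusted p = 0.0152). Beside Apoe, Tomm40 of the mitochondrial import pore changed by -0.21 ± 0.11 between days 4 and 7, which did not pass, and by -0.73 ± 0.11 from day 7 to day 21. Bcam, a laminin-binding adhesion molecule, rose in both intervals (0.76 ± 0.13 and 0.95 ± 0.13). Of 13 such neighbours 2 rose and 1 fell by day 7, and 3 rose and 3 fell from day 7 to day 21. Of all genes 6.98% rose and 6.47% fell by day 7, then 12.4% rose and 10.7% fell.

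Among the other apolipoprotein genes, 2 of 14 rose by day 7 and 0 fell, with 12 short of the threshold. At both days the same 9 of the 14 had a mean below background, where a change could hardly be read. Of all genes 6.98% rose and 6.47% fell. Apoc2, which lies in the cluster with Apoe and encodes the cofactor of lipoprotein lipase, rose by 3.20 ± 0.11 and then changed by -2.45 ± 0.11. Its deposited values were identical on the 3 day 21 arrays (7.04), so that day gives no replicate error. Clu, clusterin, rose by 0.60 ± 0.09 and then a further 3.04-fold (adjusted p = 7.90e-07). Between days 7 and 21, 5 of the 14 rose and 1, Apoc2, fell, beside 12.4% and 10.7% of all genes. Besides Clu the larger rises were those of Apod, a lipocalin (1.37 ± 0.35), and Apoh, beta-2-glycoprotein I (1.24 ± 0.16), both from below background. The median log2 change of this list from day 7 to day 21 was 0.09, and -0.00 with arrays centred on their median.

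From day 7 to day 21, 8 of the 10 genes fell, Apoa2 rose and Apoc1 did not pass. The falls ran from 1.38-fold for Apoa5 to 8.57-fold for Apom. Among all genes 23.0% were called, 12.4% higher and 10.7% lower at day 21. Of all calls 53.7% were upward, and 37.6% with arrays centred on their median, a scaling under which the 10 genes still gave 1 rise and 8 falls. Arrays of the 2 days did not overlap for the 8 that fell (18.4% of all genes were lower in this way) or for Apoa2 (17.1% were higher). The median log2 change was -0.65 for the 10 genes and -0.03 for all genes.

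**Figure D3:**
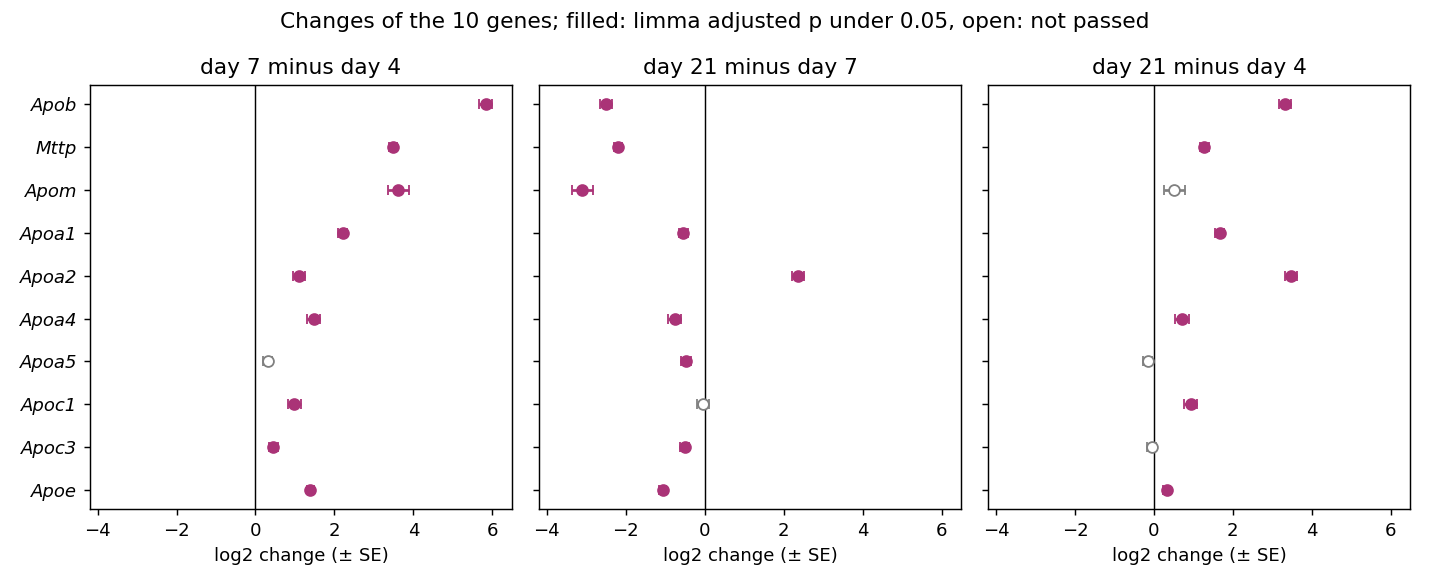
Log2 change with its SE (horizontal axis, limma) of the 10 genes (rows) in the 3 comparisons, with filled points where the adjusted p was under 0.05 and open points where it was not. In the middle panel Apoa2 (2.37) is to the right of 0 and Apom (-3.10), Apob (-2.50) and Mttp (-2.20) are farthest to the left.

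Markers of other cell types moved over the same interval, and their part in these changes was not tested. For the counts that follow, 12.4% of all genes rose and 10.7% fell from day 7 to day 21. By day 7 the shares were 6.98% and 6.47%. The summed linear signal of 10 mesenchyme markers was 960.4 to 1193 on the day 7 arrays and 14870, 9856 and 7288 on day 21 arrays 1, 2 and 3, with 9 of 10 risen and all 10 above background at day 21. Apob, Mttp, Apom, Apoa2 and Apoe were lowest on day 21 array 3, where the sums of the mesenchyme, hepatocyte (3906) and visceral endoderm (14910) markers were also lowest. The rest of the 10 genes were lowest on array 1 or 2. The enterocyte sum was lowest on array 1 (1857), and the macrophage sum was highest on array 3 (1498). The sum of 14 hepatocyte markers went from 810.1 to 850.5 at day 7 to 3906 to 5299 at day 21, with 6 of 14 risen, led by Alb, albumin, at 6.19 ± 0.15 from below background. With arrays centred on their median or 75th percentile 5 rose, as the call of Serpina1b was lost (limma adjusted p = 0.0683 and 0.0627). Of these 14, Tat, Cyp7a1, G6pc, Pck1, Tdo2, Otc, Serpina1a and Serpina1b were below background at day 21. The sum of 11 enterocyte markers went from 896.3 to 1050 at day 7 to 1857 to 2238 at day 21, with 6 risen and 1 fallen, while Cdx1, Cdx2, Alpi, Sis and Mep1a were below background. Macrophages also make Apoe. The sum of 12 macrophage markers was 1174 to 1249 at day 7 and 1336 to 1498 at day 21, with Csf1r and Lyz2 risen, and Ptprc, Adgre1, Fcgr1, Tyrobp, Itgam, Mrc1 and Lyz2 were below background at day 21. Visceral endoderm markers gave a sum of 3470 to 3705 at day 4, 27810 to 29490 at day 7 and 14910 to 16440 at day 21. Of these 14, 13 rose by day 7, and from day 7 to day 21 11 fell and 1, Afp, rose. Afp is the gene whose promoter drives the sorted reporter, and its rise is part of the day 21 sum. In RNA from a pool of sorted cells, fewer cells of a type and less RNA per cell cannot be told apart.

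At day 21 against day 4, a comparison that shares its arrays with the other 2, 7 of the 10 genes were higher and 0 lower. Of all genes 29.1% were called, 15.0% higher and 14.1% lower, and 51.6% of calls were upward. With arrays centred on their median, which moved the median of all genes from -0.03 to -0.14, 36.8% of calls were upward and 6 of the 10 genes were called, all higher. The largest net rises were those of Apoa2 (3.47 ± 0.16) and Apob (3.33 ± 0.16), followed by Apoa1 (1.67 ± 0.11), Mttp (1.28 ± 0.11) and Apoc1 (0.93 ± 0.16). Apom, Apoa5 (-0.16 ± 0.12) and Apoc3 (-0.06 ± 0.11) did not pass. Arrays of days 4 and 21 did not overlap for 7 genes, all higher at day 21, as for 19.4% of all genes (21.0% were lower in this way).

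Receptors that take up lipoproteins changed in both directions. Of 17 measured, 9 rose, 4 fell and 4 did not pass by day 7 (median 0.45). Of all genes 6.98% rose and 6.47% fell. Cubn, cubilin, an endocytic receptor that binds apolipoprotein A1, rose by 6.28 ± 0.16 from below background. Dab2, an adaptor for such receptors, rose by 3.23 ± 0.10 and Lrpap1, a chaperone of the receptor family, by 2.41 ± 0.11. Cd36, a fatty acid and lipoprotein scavenger receptor, went the other way at -2.61 ± 0.19. In the later interval 8 fell, 4 rose and 5 did not pass (median -0.15), while 10.7% of all genes fell and 12.4% rose. Cubn changed by -2.17 ± 0.16, Lrp2, megalin, by -1.60 ± 0.33 and Lrpap1 by -1.33 ± 0.11, whereas Cd36, below background at day 7, rose by 2.05 ± 0.19. At day 21 against day 4, 6 were higher and 2 lower, beside 15.0% and 14.1% of all genes.

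Genes that remodel particles outside the cell showed no call at day 7. Of 15 measured 0 passed limma's adjusted test between days 4 and 7 (median 0.01), against 13.4% of all genes called. Among the 15, 3 had an unadjusted p under 0.05. Lipg, endothelial lipase (-0.78 ± 0.23), and Angptl4, an inhibitor of lipoprotein lipase (-0.52 ± 0.19), had the largest changes. Between days 7 and 21, 6 rose and 0 fell (median 0.30), or 4 and 0 with arrays centred on their median. Of all genes 12.4% rose and 10.7% fell. Abca1, which exports cholesterol to apolipoprotein A1, rose by 2.25 ± 0.29, Lpl, lipoprotein lipase, by 1.56 ± 0.30, Gpld1, a phospholipase carried on these particles, by 0.82 ± 0.16 and Angptl4, from below background, by 0.80 ± 0.19. Among 24 intracellular lipid carriers and handling enzymes, 6 rose and 3 fell by day 7, and 7 rose and 4 fell from day 7 to day 21. The shares of all genes were 6.98% and 6.47%, then 12.4% and 10.7%. The liver and gut fatty acid carrier Fabp1 rose by 1.05 ± 0.17 and then by 3.33 ± 0.17, staying below background until day 21. Npc1, which moves cholesterol out of lysosomes, rose by 1.24 ± 0.12 and then changed by -1.41 ± 0.12.

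**Figure D4:**
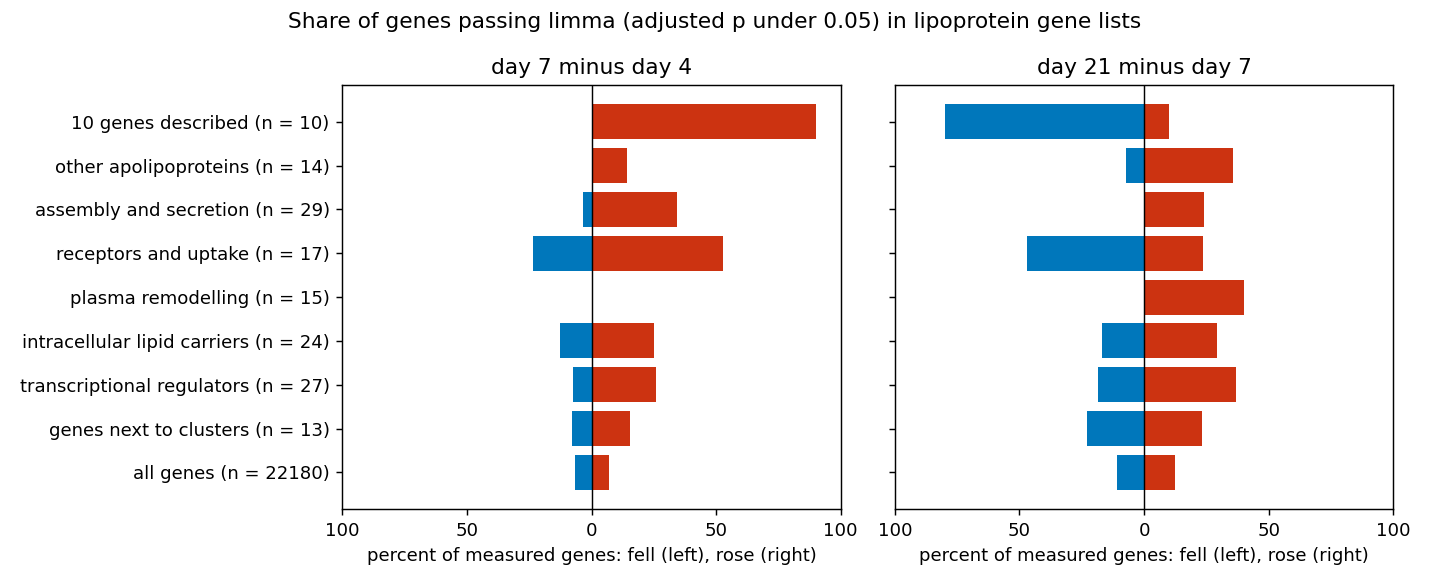
Share of the measured genes of each list, in percent, that rose (to the right) or fell (to the left) by limma between days 4 and 7 and between days 7 and 21, with the number measured beside each name and all 22180 genes in the bottom row. Receptors and uptake genes had 9 of 17 risen and 4 fallen, then 4 risen and 8 fallen, and plasma remodelling genes show 0 calls and then 6 rises.

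Transcription factors known to act on apolipoprotein genes divided by interval. Of 27 measured, 7 rose, 2 fell and 18 did not pass by day 7 (median 0.06). From day 7 to day 21, 10 rose, 5 fell and 12 did not pass (median 0.18). Of all genes 6.98% rose and 6.47% fell by day 7, then 12.4% rose and 10.7% fell. Hnf4a, a nuclear receptor that drives Apob, Mttp and the Apoa1 cluster, rose by 2.66 ± 0.18 and then changed by -1.03 ± 0.18. Foxa3 (1.67 ± 0.11, then -0.63 ± 0.11) and Gata4 (1.64 ± 0.13, then -1.13 ± 0.13) took the same course. Nr2f2, an orphan receptor that can bind the same sites as Hnf4a, rose by 0.97 ± 0.15 and by 2.22 ± 0.15. Onecut1, a liver factor (3.37 ± 0.19), Ppargc1a, a coactivator (3.34 ± 0.21), and Foxa1 (1.38 ± 0.09) also rose from day 7 to day 21. Onecut1 and Ppargc1a started from below background at day 7, and Nr2f2 from below it at day 4. Their part in the changes of the 10 genes was not tested.

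The genes with the most similar courses were found by the root mean square distance between values over the 9 arrays, each gene centred on its own mean. The nearest to Apob was Cubn, at a distance of 0.33 log2 units. The nearest to Mttp was Ctsh, a lysosomal protease, at 0.11, and the next was Apoc2 at 0.28. Apom was nearest to Gramd1b, a sterol transfer protein (0.29), Apoa1 to S100a1, a calcium-binding protein (0.09), and Apoa2 to Gas6, a ligand of TAM receptors (0.23). Apoa2 and Gas6 each had identical deposited values on the 3 day 7 arrays. Apoe was nearest to Rab3il1 and Glul, glutamine synthetase, both at 0.11. Because the 3 days share all 9 arrays, closeness in this measure says that genes had like changes and gives no measure of shared control.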

How the data were processed

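Expression was measured on 9 arrays, 3 each at days 4, 7 and 21. The authors deposited log2 signals for each probe set, made by RMA in Expression Console according to the submitters' processing notes. Tool versions were not given in the sources used here. The RMA method subtracts background and brings arrays to a common distribution, so a shift of all transcripts together is largely removed. RNA was labelled with a kit for picogram inputs, per the labels' protocols, and its amplification can distort ratios of dim transcripts. There is no read depth, and the number of arrays limits precision.

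Of 34365 probe sets, the 23521 with 1 gene symbol were kept and the one with the highest mean was used per gene, leaving 22180 genes. Symbols were compared by Entrez number with RefSeq (GRCm38.p6) for 23328 probe sets, and 0 changed. The 3 days' means were fitted on all 9 arrays by limma 3.58.1 (lmFit and eBayes) in R 4.3.3, two-sided, with Benjamini-Hochberg adjustment over all genes and calls at an adjusted p under 0.05. Since separate cultures are not stated, the p-values reflect the spread of these arrays alone, which may be technical. Single differences were tested by exact permutation (scipy 1.17.1), and limma was tested on simulated data. The 10 genes and all lists were chosen with earlier results of these data known. Named genes are the 10, up to 4 called genes of a list with the largest changes (or 2 where none was called), the nearest courses, and Afp and the cell type markers. Other genes (Apobec1, Sik3, Zpr1 and Tomm40) were named after their values were seen. Alternatives covered scaling, a filter on dim genes, probe sets, the variance model, the days in the fit, a replicate block and each array left out. The olfactory receptor reference for background was chosen after the data were seen. Replicate numbers were not used to pair the arrays in the main fit.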

Additional observations from a re-analysis of the deposited data

How the results depend on the processing

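Each of the 30 changes (10 genes in 3 comparisons) was recomputed under 17 alternatives, 510 values in all, of which 493 kept their direction and their side of the threshold, 14 were no longer called, 1 became called and 2 changed sign. The sign changes were those of Apoc1 from day 7 to day 21, which ran from -0.127 without day 7 array 2 to 0.0697 without day 7 array 1 when an array was left out (0.0507 without day 21 array 2). It was lowest at -0.144 with arrays centred on their median and did not pass in any setting. The calls that were lost or gained concern Apoc3, Apoa5, Apoe and Apom, as given above with their values. The number of the 10 genes called stayed within 8 to 9, 8 to 9 and 6 to 8 in the 3 comparisons when an array was left out. With the replicate block it was 9, 9 and 7, and 2895, 5041 and 6413 of all genes were called. Deviations of arrays with the same number correlated at -0.05 to 0.26. Day 4 arrays correlated negatively with arrays of their own number at the other days. Between days 7 and 21, same-number arrays correlated at 0.08, 0.14 and 0.26, and arrays of unlike number at -0.18 to 0.07. Whether arrays of these 2 days were paired is therefore not settled, and the main fit did not pair them. Each of the 10 genes had 1 probe set, so averaging probe sets moved only the fit's shared spread. Genes near background, Apoa5 above all, have little signal from which a fold could be read.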

Other observations

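Markers of stem cells and neural cells were also measured in the sorted cells. For reference, 13.4% of all genes were called by day 7 and 23.0% from day 7 to day 21. Of 10 pluripotent cell markers 3 fell and 1 rose by day 7, and 3 fell and 1 rose from day 7 to day 21. Tdgf1, a Nodal co-receptor, changed by -3.88 ± 0.10 and then by -2.31 ± 0.10, whereas Sox2 rose by 1.35 ± 0.20 by day 7. Of 9 neural and glial markers 3 fell and 1 rose by day 7, and 3 rose and 2 fell by day 21. Among these Fabp7, a brain-type fatty acid carrier that also stands in the lipid carrier list, changed by -2.91 ± 0.21 and then by 2.58 ± 0.21, the reverse course to Apob.

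Values identical to the last deposited digit on the 3 arrays of a day were found for 220 genes (0.99%) at day 4, 214 at day 7 and 130 (0.59%) at day 21. A further 1860, 1869 and 1369 genes had the same value on 2 of the 3 arrays. Among the 10 genes these were Apoa2 on all 3 day 7 arrays, and Apom and Apoe on 2 of the day 21 arrays.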
